A study of Mus musculus with 6 samples.

Results

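The cyclic AMP machinery was followed through 68 genes of the count table, out of 41388, in cultured fibro-adipogenic progenitors given prostaglandin E2 (PGE2) or vehicle. The genes were chosen by symbol: adenylyl cyclases (Adcy), the catalytic and regulatory subunits of protein kinase A (Prkac, Prkar), its inhibitor peptides (Pki), phosphodiesterases of families 1 to 11 (Pde), A-kinase anchors (Akap), the CREB and CREM factors, CRTC coactivators, salt-inducible kinases (Sik) and the exchange factors Rapgef3 and Rapgef4. They carried 67 symbols, because Pde4d was listed under 2 identifiers. The filter on low counts kept 57 of the 68, and 15186 of all genes. The other 11 were Adcy8, Adcy10, Akap3, Akap4, Akap5, Akap14, Pde4c, Pde6a, Pde6b, Pde6c and Pkib, whose highest count in any library was 15 (Adcy8, 0.347 CPM). Akap4, Akap14, Pde6c and Pkib had no count in any library.

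Fibro-adipogenic progenitors are mesenchymal cells that lie between the fibres of skeletal muscle and can form fibroblasts and adipocytes. Primary cells of male wild-type mice grew in medium with 10% fetal bovine serum and a fibroblast growth factor, and both groups shared this medium. The treated group received 500 nM PGE2 once a day for 2 days, and the other cultures received vehicle on the same days, with 3 poly(A) RNA libraries in each. Whether the 3 libraries of a group stem from different mice or from different dishes is not in the labels. The p-values therefore reflect variation among these libraries, part of which may be technical. Of the members, 11 carry the annotation's tag for a transcript overlapping another locus, among them Creb5, Pde2a, Pde4d and Pde7b, and their counts are uncertain to that extent.

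PGE2 binds G protein-coupled receptors, and its receptors EP2 and EP4 act through the stimulatory G protein on adenylyl cyclase, which makes cyclic AMP from ATP. Cyclic AMP binds the regulatory subunits of protein kinase A and frees the catalytic subunits, which A-kinase anchors hold near their substrates, and it also opens the Rap exchange factors that Rapgef3 and Rapgef4 encode. Kinase A phosphorylates CREB and inhibits salt-inducible kinases, which lets CRTC coactivators enter the nucleus, while phosphodiesterases break cyclic AMP down.

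Library totals lay between 38150216 and 52730962 counts with PGE2 and between 21006044 and 42708381 with vehicle. A level of 3 counts equalled 0.0582 to 0.142 CPM, CPM being counts scaled to library size. The summed level of 10 progenitor markers was 8007 to 20131 CPM with PGE2 and 8165 to 15815 CPM with vehicle, and Pdgfra, the receptor by which these cells are known, averaged 1288 CPM with PGE2 and 1282 CPM with vehicle. In the paired fit, described below, 3 of these 10 markers were higher (Ly6a, Pi16 and Thy1) and 2 lower (Cd34 and Lum) with PGE2. Over all tested genes 6.91% were higher and 7.51% lower in that fit, the shares for all marker counts here and below. Schwann cell markers summed to 4.24 to 5.10 CPM with PGE2 and 6.91 to 8.09 CPM with vehicle, with 2 of 3 tested lower in that fit and Sox10 at 0 in every library. Endothelial markers summed to 19.0 to 33.2 CPM with PGE2 and 21.2 to 46.9 CPM with vehicle, with 1 of 4 tested lower, and 1 of 4 tested tendon markers was lower. Myogenic markers summed to 163, 20.0 and 22.9 CPM in PGE2 libraries 1 to 3, against 250, 72.3 and 45.3 CPM in vehicle libraries 1 to 3.

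The comparison asks which parts of the machinery changed at the RNA level after 2 days of PGE2. In edgeR's quasi-likelihood test without pairing, 2 of the 57 tested members passed an adjusted p of 0.05, Crem and Pde10a, both higher with PGE2, where 0.342% of all tested genes passed. Deviations from the group mean correlated between libraries of the same number, at 0.621, 0.169 and 0.422 for numbers 1 to 3. PGE2 2 correlated more with vehicle 3, at 0.252. The labels state no pairing, and the numbers were also used as pairs only because of these correlations. In this paired fit, 19 members (33.3%) passed, where 14.4% of all tested genes did. Of these, 12 rose, where 6.91% of all genes did, and 7 fell, where 7.51% of all genes did. The median log2 fold change was -0.04 over the members and -9.25e-05 over all tested genes. Below, "rose" and "fell" refer to the paired fit unless stated otherwise.

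**Figure D1:**
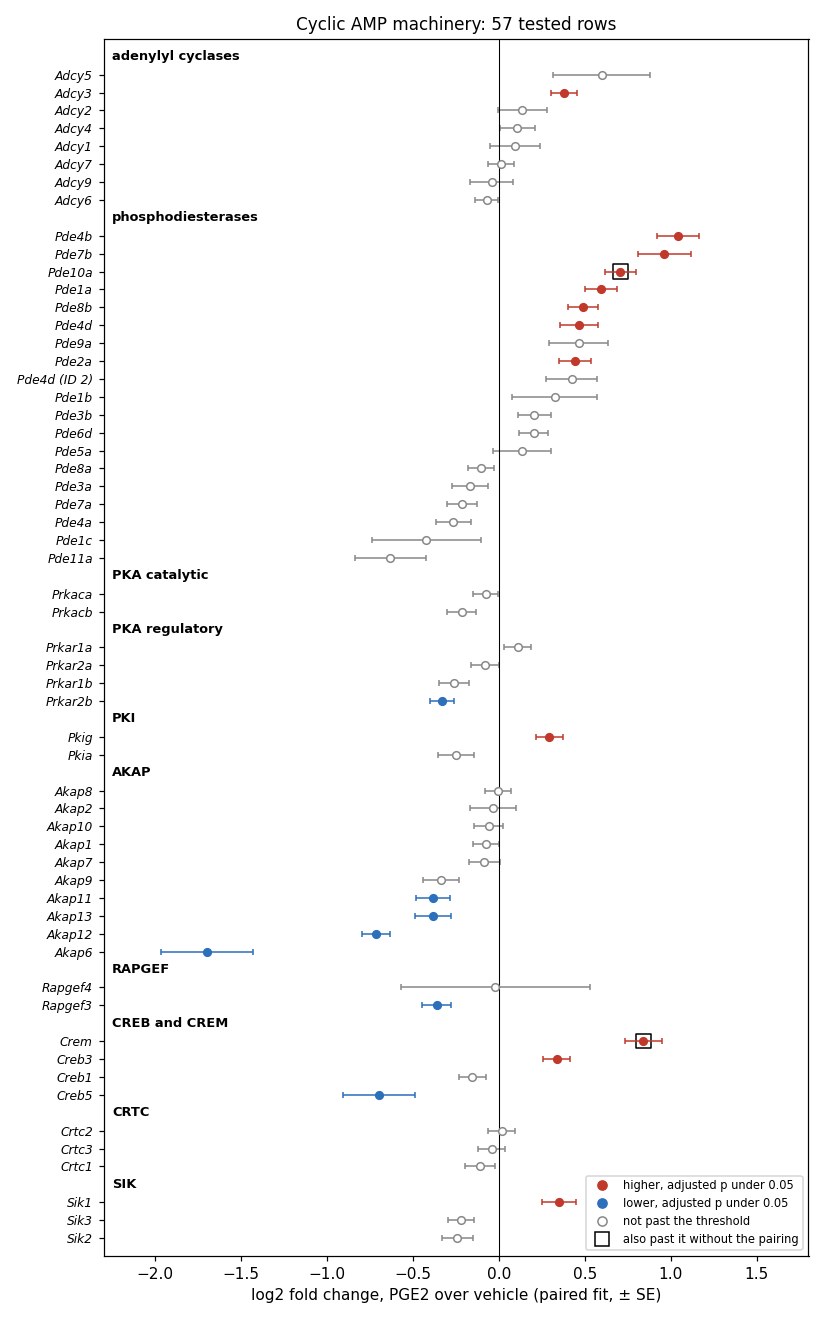
Log2 fold change, PGE2 over vehicle, of the 57 tested genes of the cyclic AMP machinery in the paired fit, grouped by role, with bars of 1 SE. Filled points passed an adjusted p of 0.05, and the squares mark Crem and Pde10a, which also passed without pairing. The 7 risen phosphodiesterases lie between 0.44 and 1.04, and the 4 fallen anchors between -1.70 and -0.38.

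The promoter regions of the members were searched for the cyclic AMP response element, the DNA sequence that CREB and CREM bind. The full element TGACGTCA reads the same on both strands, and the short form, TGACGT or ACGTCA on the other strand, lies within it. RefSeq promoter windows (build GRCm38.p6, 250 bases before to 50 after a start) were at hand for 53 member symbols, with 99 windows. The full element stood in 3 of these 99 windows, from 2 genes, where 1.79% of all 32851 windows held it. The short form stood in 10, from 9 genes, where 7.51% of all windows held it. All windows together belong to 27025 genes, so the members had more windows per gene. Among the 12 risen members 10 were searched, and Pde4b alone of these held the short form. Among the 7 fallen members 6 were searched, and Akap11, Creb5 and Rapgef3 held it. By gene, 8.37% of all genes with windows held the short form. Shown here are the Pde4b window, from the member that rose most, the full elements of Creb5, which fell, and of Prkar1a, the most abundant member per kilobase, and the Pde10a window nearest its annotated 5′ end, in which neither motif was found. The annotated Pde10a gene starts at chr17:8525372 on the plus strand, so its printed window, beginning at 8801495, is at an internal start. Capitals mark the motif, and a match is a description of the letters only.
Pde4b, chr4:102421305-102421604, plus strand, 1 of 4 windows, short form 35 bases before the start: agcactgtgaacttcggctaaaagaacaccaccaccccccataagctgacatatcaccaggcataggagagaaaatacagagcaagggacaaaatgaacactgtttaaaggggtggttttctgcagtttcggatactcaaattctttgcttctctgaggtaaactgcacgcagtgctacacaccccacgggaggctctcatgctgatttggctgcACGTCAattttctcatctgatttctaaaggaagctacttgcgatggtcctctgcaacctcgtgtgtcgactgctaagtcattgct
Creb5, chr6:53287053-53287352, plus strand, 1 of 2 windows, full element 45 bases before the start: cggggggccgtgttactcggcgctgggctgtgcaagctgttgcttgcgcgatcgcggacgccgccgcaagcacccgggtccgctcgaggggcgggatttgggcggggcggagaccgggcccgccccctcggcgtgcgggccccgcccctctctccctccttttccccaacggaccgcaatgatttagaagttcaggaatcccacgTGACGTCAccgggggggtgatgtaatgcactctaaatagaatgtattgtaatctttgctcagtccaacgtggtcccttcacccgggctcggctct
Prkar1a, chr11:109650699-109650998, plus strand, 1 of 6 windows, overlapping another that holds the same element, full element 49 bases before the start: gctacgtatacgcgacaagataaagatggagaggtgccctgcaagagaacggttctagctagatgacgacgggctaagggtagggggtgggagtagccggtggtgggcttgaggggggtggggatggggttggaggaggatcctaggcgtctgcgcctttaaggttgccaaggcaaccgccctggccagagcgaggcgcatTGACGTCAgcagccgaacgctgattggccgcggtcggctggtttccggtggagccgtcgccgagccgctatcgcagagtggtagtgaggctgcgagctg
Pde10a, chr17:8801495-8801794, plus strand, 1 of 2 windows: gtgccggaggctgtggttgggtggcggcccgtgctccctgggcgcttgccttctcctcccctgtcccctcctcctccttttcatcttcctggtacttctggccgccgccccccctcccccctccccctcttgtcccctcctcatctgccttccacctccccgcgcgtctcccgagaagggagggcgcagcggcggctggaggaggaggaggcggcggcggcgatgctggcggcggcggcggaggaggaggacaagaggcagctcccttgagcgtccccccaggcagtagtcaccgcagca

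On the receptor side, which lies outside the 68 genes, no PGE2 receptor gene passed in either fit. Ptger4, the EP4 receptor gene, averaged 9.73 ± 2.73 CPM with PGE2 and 10.2 ± 0.325 CPM with vehicle (SD, n = 3 each). Ptger2, for EP2, averaged 0.215 CPM with PGE2 and 0.233 CPM with vehicle. Ptger1 averaged 3.23 CPM with PGE2 and 2.76 CPM with vehicle, and Ptger3 1.14 CPM with PGE2 and 1.12 CPM with vehicle. Gnas, which encodes the stimulatory G protein, averaged 1857 ± 53.2 CPM with PGE2 and 1733 ± 81.8 CPM with vehicle, and did not pass. Of 16 tested receptors and G proteins upstream of cyclase, 2 rose, where 6.91% of all tested genes did, and none fell. These were Adora2b, a stimulatory adenosine receptor (log2 fold change 0.38 ± 0.0789 SE, adjusted p 0.0116 in edgeR), and Gnao1, an inhibitory-class G protein subunit (0.34 ± 0.102, adjusted p 0.0482).

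Of the 8 tested adenylyl cyclases, 1 rose, where 6.91% of all tested genes did, and none fell. Adcy3, a membrane cyclase best known from olfactory neurons and cilia, had 69.8, 75.3 and 72.1 CPM in PGE2 libraries 1 to 3, against 55.3, 62.3 and 50.1 CPM in vehicle libraries 1 to 3. Every PGE2 library lay above every vehicle library, and the log2 fold change was 0.38 ± 0.0778 SE (edgeR, adjusted p 0.0116 paired and 0.114 without pairing). Adcy6, the most abundant cyclase per kilobase of transcript, had 147, 145 and 144 CPM with PGE2, against 155, 157 and 147 CPM with vehicle, overlapping groups with a log2 fold change of -0.07 ± 0.0673. By level per kilobase Adcy6 made up 45.2% ± 1.09 of the cyclase transcripts with PGE2 and 49.8% ± 0.943 with vehicle, and Adcy3 24.2% ± 0.796 with PGE2 and 19.5% ± 1.15 with vehicle (SD, n = 3 each). Adcy7 was the other cyclase above 10% of this sum, at 16.1% with PGE2 and 16.7% with vehicle.

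Adcy5, a calcium-inhibited form known from heart and striatum, had the largest log2 fold change of the tested cyclases. It had 2.39, 5.52 and 7.15 CPM in PGE2 libraries 1 to 3, against 2.72, 4.16 and 2.57 CPM in vehicle libraries 1 to 3, so it was lower in PGE2 library 1 than in vehicle library 1 and higher in the other 2 pairs. Its log2 fold change of 0.60 ± 0.281 did not pass (edgeR, adjusted p 0.191). Adcy5 passed in the paired fit without pair 1 (0.96, edgeR adjusted p 0.00385) and without pair 2 (0.69, adjusted p 0.0212), and had 0.11 without pair 3. The other 5 tested cyclases, Adcy1, Adcy2, Adcy4, Adcy7 and Adcy9, had log2 fold changes between -0.04 and 0.14 and did not pass. The cyclases per kilobase summed to 53.3 ± 0.810 CPM per kilobase with PGE2 and 50.9 ± 2.60 with vehicle, a difference within the range of the vehicle libraries, which ran from 48.2 to 53.4.

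Of 19 tested phosphodiesterase entries, the largest subfamily, 7 rose, where 6.91% of all tested genes did, and none fell. Pde4d counts in the 19 under each of its identifiers. The 7 were Pde4b, Pde7b, Pde10a, Pde1a, Pde8b, Pde4d and Pde2a. The log2 fold changes of the 19 had a median of 0.32, 13 were positive and 6 negative. PGE2 was higher in all 3 pairs for 10 of the 19, where 26.6% of all tested genes were, and lower in all 3 for 4, where 25.5% of all tested genes were.

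Families 4, 7 and 8 break down cyclic AMP only. Of their 8 tested entries, Pde4d counting under each identifier, 4 rose, where 6.91% of all tested genes did. Pde4b, the form whose transcription is known to be induced by cyclic AMP in many cells, had 45.5, 54.0 and 46.0 CPM in PGE2 libraries 1 to 3, against 29.3, 23.2 and 18.9 CPM in vehicle libraries 1 to 3. All PGE2 values exceeded all vehicle values, a 2.06-fold difference in the paired fit (log2 1.04 ± 0.121 SE, edgeR adjusted p 0.000835, and 0.0614 without pairing). Pde4b (Ensembl ENSMUSG00000028525) lies at chr4:102087543-102607259 on the plus strand of GRCm38, so the printed window is at an internal start. Leukocytes also express Pde4b, and 2 of 3 tested macrophage and leukocyte markers rose, their sum being 11.5 to 12.3 CPM with PGE2 and 8.52 to 9.10 CPM with vehicle, with Ptprc at 0 in every library. Their part in the Pde4b result was not tested.

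Pde7b, a high-affinity cyclic AMP esterase, had 14.0, 19.0 and 17.1 CPM in PGE2 libraries 1 to 3, against 10.2, 8.19 and 7.14 CPM in vehicle libraries 1 to 3. The groups did not overlap, and libraries of pairs 2 and 3 differed by more than those of pair 1 (log2 differences of 0.46, 1.21 and 1.26 in pairs 1 to 3). The paired log2 fold change was 0.96 ± 0.154 (edgeR, adjusted p 0.00411, and 0.0728 without pairing). Its relative Pde7a had 18.8, 20.3 and 19.8 CPM with PGE2, against 20.3, 25.5 and 22.9 CPM with vehicle, and a log2 fold change of -0.21 ± 0.0863 that did not pass.

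Pde8b, an esterase with very high affinity for cyclic AMP, had 69.8, 67.6 and 67.1 CPM in PGE2 libraries 1 to 3, against 57.0, 47.8 and 41.9 CPM in vehicle libraries 1 to 3. The PGE2 libraries were close to each other and all above the vehicle libraries (log2 fold change 0.49 ± 0.0865, edgeR adjusted p 0.00546, 0.111 without pairing). Pde8a, its relative, did not pass (-0.11 ± 0.0743). Pde4d, anchored by several A-kinase anchors, had 19.0, 24.7 and 23.8 CPM with PGE2, against 16.7, 18.0 and 14.0 CPM with vehicle, without overlap (log2 fold change 0.47 ± 0.112, edgeR adjusted p 0.022 paired and 0.143 without pairing). Its other identifier gave 0.42 ± 0.149 and did not pass, at an adjusted p of 0.0839 in edgeR. The sum of both, an alternative added after the data were seen, gave 0.46 with pairing (edgeR, adjusted p 0.0201). Pde4a, the remaining tested family 4 gene, did not pass (-0.26 ± 0.0996).

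Families 1, 2, 3, 10 and 11 break down both cyclic AMP and cyclic GMP. Of their 8 tested genes 3 rose, where 6.91% of all tested genes did. Pde10a, a dual esterase known mainly from striatum, had 21.3, 25.5 and 25.6 CPM in PGE2 libraries 1 to 3, against 14.6, 14.4 and 15.1 CPM in vehicle libraries 1 to 3. The vehicle libraries were nearly level and every PGE2 library lay above them (log2 fold change 0.71 ± 0.0913 SE in the paired fit, edgeR adjusted p 0.00103, and 0.0402 without pairing). Without pairing, leaving out a PGE2 library gave Pde10a adjusted p values (edgeR) of 0.0227 (PGE2 1), 0.296 (PGE2 2) and 0.14 (PGE2 3). Leaving out a vehicle library gave 0.0856 (vehicle 1), 0.218 (vehicle 2) and 0.0531 (vehicle 3) in edgeR. No tested gene of the whole table passed without PGE2 2, PGE2 3, vehicle 2 or vehicle 3.

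Pde1a, activated by calcium and calmodulin, had 32.2, 48.6 and 54.3 CPM in PGE2 libraries 1 to 3, against 23.1, 35.7 and 30.1 CPM in vehicle libraries 1 to 3. PGE2 library 1 lay below vehicle library 2, so the groups overlapped, yet each pair had the higher value in the PGE2 library (log2 fold change 0.59 ± 0.0943, edgeR adjusted p 0.00307 paired and 0.217 without pairing). Pde2a, stimulated by cyclic GMP, had 25.8, 20.7 and 19.0 CPM with PGE2, against 20.4, 16.2 and 12.2 CPM with vehicle. Its groups also overlapped while all 3 pairs were higher with PGE2 (log2 fold change 0.44 ± 0.0942, edgeR adjusted p 0.0136 paired and 0.29 without pairing).

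The other dual esterases did not pass, and Pde1b, Pde1c and Pde3a had log2 fold changes of 0.32 ± 0.246, -0.42 ± 0.317 and -0.17 ± 0.104. Pde3b, the insulin-regulated esterase of adipocytes, had a log2 fold change of 0.21 ± 0.0971, and Pde11a, at 1.57, 1.65 and 2.56 CPM with PGE2, against 3.09, 2.98 and 2.75 CPM with vehicle, had -0.63 ± 0.207 with groups that did not overlap (edgeR, adjusted p 0.0666). No member of families 5, 6 and 9, selective for cyclic GMP, passed among 3 tested. Pde6d was the most abundant phosphodiesterase gene per kilobase, at 37.8 ± 2.88 CPM per kilobase with PGE2 and 32.8 ± 2.51 with vehicle. Its product is a non-catalytic subunit that carries prenylated proteins. Pde5a (0.13 ± 0.168) and Pde9a (0.46 ± 0.172) gave the other values of that class.

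**Figure D2:**
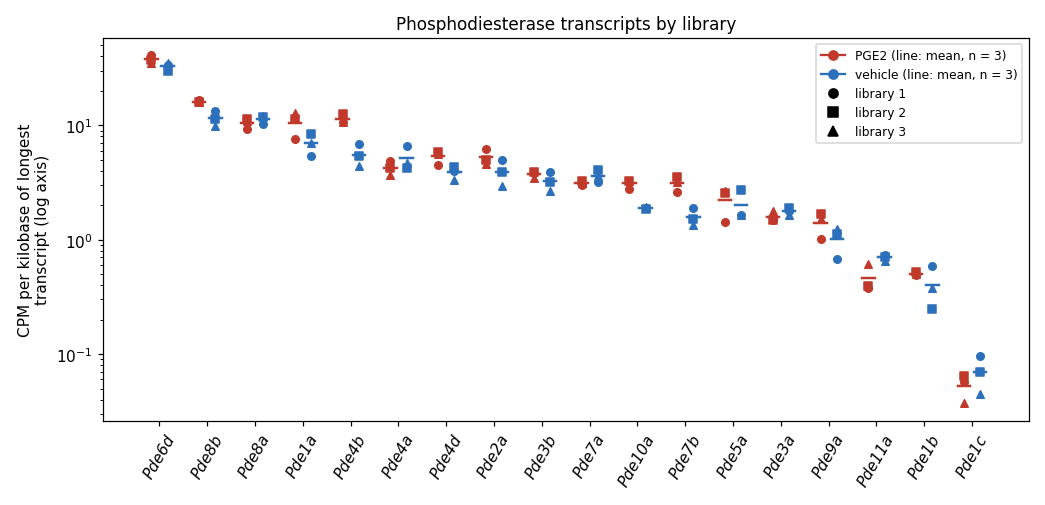
Level of the phosphodiesterase genes in CPM per kilobase of the longest annotated transcript (log axis), PGE2 left and vehicle right of each gene, a point per library and a line at the mean (n = 3 each). Pde6d is highest in both groups, and Pde4b averages 11.3 with PGE2 and 5.53 with vehicle.

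Summed per kilobase, phosphodiesterase transcripts came to 118, 124 and 120 CPM per kilobase in PGE2 libraries 1 to 3, against 101, 96.6 and 94.4 in vehicle libraries 1 to 3. All PGE2 sums lay above all vehicle sums. Pde6d, whose product is not catalytic, made up 31.4% ± 2.97 of this sum with PGE2 and 33.7% ± 2.91 with vehicle. The sum also holds Pde5a and Pde9a, selective for cyclic GMP. Relative to cyclase transcripts the sum was 2.24, 2.32 and 2.22 with PGE2, against 1.98, 1.81 and 1.96 with vehicle. For families 4, 7 and 8 alone the ratio to cyclase averaged 1.01 ± 0.0452 with PGE2 and 0.838 ± 0.0558 with vehicle (SD, n = 3 each), without a test, since the genes were chosen with results known. Pde4b took 9.34% ± 0.671 of the phosphodiesterase sum with PGE2 and 5.64% ± 1.03 with vehicle. These ratios are of transcripts and say nothing of enzyme activity.

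Neither catalytic subunit of protein kinase A passed. Prkaca had 119, 118 and 101 CPM with PGE2, against 121, 118 and 117 CPM with vehicle (log2 fold change -0.08 ± 0.0729), and Prkacb had -0.22 ± 0.0847. Of 4 regulatory subunits 1 fell, where 7.51% of all tested genes did. Prkar2b, the type II beta subunit abundant in fat, had 75.1, 53.3 and 41.4 CPM in PGE2 libraries 1 to 3, against 93.9, 69.5 and 50.6 CPM in vehicle libraries 1 to 3. The groups overlapped widely, and each PGE2 library lay below the vehicle library of its number (log2 fold change -0.33 ± 0.0715, edgeR adjusted p 0.0141 paired and 0.554 without pairing). Prkar1b (-0.26 ± 0.0862) and Prkar2a (-0.08 ± 0.0795) did not pass.

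Prkar1a, the type I alpha subunit, was the most abundant member per kilobase, at 187 ± 3.45 CPM per kilobase with PGE2 and 173 ± 5.81 with vehicle, and did not pass (log2 fold change 0.11 ± 0.0786). It made up 84.4% ± 2.74 of the regulatory transcripts with PGE2 and 80.8% ± 4.23 with vehicle. Per kilobase, the ratio of regulatory to catalytic transcripts was 3.25 ± 0.0616 with PGE2 and 2.91 ± 0.0252 with vehicle, and the 3 libraries of each group did not overlap. Pkig, which encodes an inhibitor peptide of the catalytic subunit, had 36.0, 36.1 and 38.1 CPM in PGE2 libraries 1 to 3, against 29.9, 27.5 and 32.7 CPM in vehicle libraries 1 to 3. Every PGE2 value exceeded every vehicle value, and it rose (log2 fold change 0.29 ± 0.0782, edgeR adjusted p 0.0334 paired and 0.142 without pairing), whereas Pkia did not pass (-0.25 ± 0.105).

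Of 10 tested A-kinase anchors 4 fell, where 7.51% of all tested genes did, and none rose. All 10 log2 fold changes were negative, with a median of -0.21, and 7 anchors were lower in all 3 pairs, where 25.5% of all tested genes were. With the trend on transcript length removed, 2 of the 4 still passed, Akap12 and Akap6, the median was -0.08, and Akap2 (0.14) and Akap8 (0.06) had positive values. Akap12 (gravin), the most abundant anchor per kilobase, which gathers kinase A and beta-adrenergic receptors, had 336, 262 and 260 CPM in PGE2 libraries 1 to 3, against 538, 478 and 394 CPM in vehicle libraries 1 to 3. Every PGE2 library was below every vehicle library (log2 fold change -0.72 ± 0.0818, edgeR adjusted p 0.000506, 0.0961 without pairing). It made up 47.1% ± 3.85 of the anchor transcripts per kilobase with PGE2 and 57.0% ± 2.69 with vehicle, and the anchor sum was 97.8 ± 6.70 CPM per kilobase with PGE2 and 133 ± 14.3 with vehicle.

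Akap6, the anchor of the nuclear envelope in muscle cells, was rare, at 0.969, 0.330 and 0.490 CPM in PGE2 libraries 1 to 3, against 2.67, 1.75 and 1.29 CPM in vehicle libraries 1 to 3. The highest PGE2 library was below the lowest vehicle library (log2 fold change -1.70 ± 0.267, edgeR adjusted p 0.00295, 0.13 without pairing). Myogenic markers moved with it: 4 of 8 tested fell, where 7.51% of all tested genes did, and none rose. Their sums were 20.0 to 163 CPM with PGE2 and 45.3 to 250 CPM with vehicle. The myogenic stem cell genes Pax7 and Myf5 lay below the level of 3 counts on average in both groups. Pericyte and smooth muscle markers summed to 51.8 to 73.0 CPM with PGE2 and 68.6 to 106 CPM with vehicle, with 3 of 6 lower and none higher. Their part in the falls of the anchors and other members was not tested, and in bulk RNA fewer cells of a type and less RNA per cell cannot be told apart.

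Akap11 and Akap13 also fell by smaller amounts. Akap11 had 58.3, 57.9 and 64.3 CPM with PGE2, against 81.4, 87.6 and 67.3 CPM with vehicle (log2 fold change -0.38 ± 0.0994, edgeR adjusted p 0.0306 paired and 0.136 without pairing). Akap13, which also activates RhoA, had 42.4, 40.6 and 46.6 CPM with PGE2, against 57.1, 63.6 and 49.2 CPM with vehicle (log2 fold change -0.38 ± 0.103, edgeR adjusted p 0.0337 paired and 0.136 without pairing). In both, the PGE2 values lay below the vehicle values, and pair 3 differed least. Once the trend on transcript length was removed, neither passed, and the log2 fold changes were -0.16 for Akap11 and -0.11 for Akap13. The other 6 tested anchors did not pass, with log2 fold changes between -0.34 and -0.01.

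**Figure D3:**
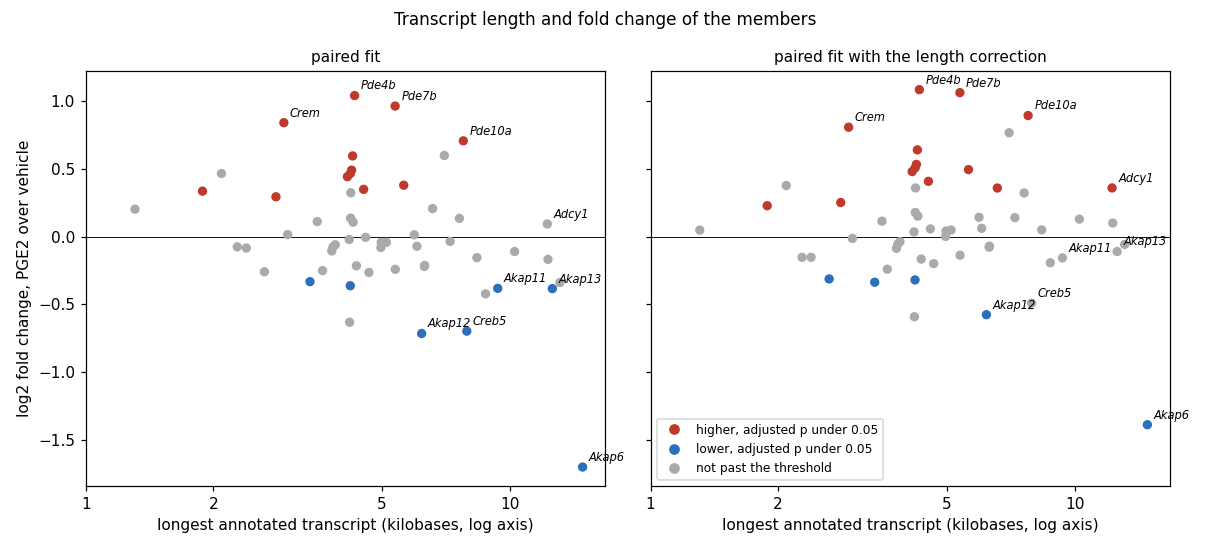
Log2 fold change against the longest annotated transcript (kilobases, log axis) of the members in the paired fit (left) and after correction for length within each library (right). Points past an adjusted p of 0.05 are coloured, red higher and blue lower with PGE2. Across members the rank correlation of length and fold change is -0.299 on the left and -0.0178 on the right.

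Longer transcripts tended to have lower fold changes in these libraries. Across 15098 tested genes with an annotated length the rank correlation of length and paired log2 fold change was -0.410, and across 56 members it was -0.299, a description over genes, which are not independent. The median longest transcript was 4546 bases among members and 3200 bases among all tested genes. With the trend on length removed within each library, 19 members passed in the paired fit, where 16.8% of all tested genes did, and 16 of them were shared with the same direction. Of the 19, 14 were higher, where 8.82% of all genes were, and 5 lower, where 7.97% were. Without pairing, the length correction left 0 members past the threshold, where 0.0988% of all tested genes passed, with 18 members at an unadjusted p under 0.05 in edgeR and 10 called by DESeq2 without the correction. The values that follow are from the paired fit with the length correction. There, Akap11, Akap13 and Creb5 no longer passed, with adjusted p of 0.0921, 0.251 and 0.117 in edgeR. Adcy1 (log2 fold change 0.36, adjusted p 0.0344) and Pde3b (0.36, adjusted p 0.00678) passed as higher, and Prkar1b (-0.31, adjusted p 0.0136) as lower. Akap12 was still lower, at -0.58, and Akap6 at -1.39, with adjusted p of 2.64e-05 and 0.00208 in edgeR.

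Among the other effectors, Rapgef3, the Epac1 exchange factor that activates Rap, had 21.3, 16.3 and 15.5 CPM in PGE2 libraries 1 to 3, against 25.7, 22.0 and 20.4 CPM in vehicle libraries 1 to 3. PGE2 library 1 exceeded vehicle library 3, so the groups overlapped, and each pair was lower with PGE2 (log2 fold change -0.36 ± 0.0857, edgeR adjusted p 0.0205 paired and 0.232 without pairing). Rapgef4 averaged 0.194 CPM with PGE2 and 0.211 CPM with vehicle, near the level of 3 counts, and allows no statement on change at this depth.

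Among the transcription factors, Crem rose, in both fits. Its gene gives activators and, from an internal promoter, the short repressor ICER, which counts per gene cannot separate. Crem had 11.8, 13.7 and 12.5 CPM in PGE2 libraries 1 to 3, against 6.42, 7.19 and 7.60 CPM in vehicle libraries 1 to 3. The lowest PGE2 library was above the highest vehicle library, a 1.79-fold difference (log2 0.84 ± 0.107 SE, edgeR adjusted p 0.000936 paired and 0.0416 without pairing). Leaving out a PGE2 library without pairing gave Crem adjusted p values (edgeR) of 0.0433 (PGE2 1), 0.309 (PGE2 2) and 0.14 (PGE2 3). Leaving out a vehicle library gave 0.0856 (vehicle 1), 0.218 (vehicle 2) and 0.0524 (vehicle 3) in edgeR. As stated for Pde10a, no tested gene of the whole table passed without PGE2 2, PGE2 3, vehicle 2 or vehicle 3.

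Creb1, the factor that kinase A phosphorylates, had 32.4, 32.9 and 31.8 CPM with PGE2, against 36.9, 38.3 and 33.2 CPM with vehicle. Its groups did not overlap, and its log2 fold change of -0.16 ± 0.0775 did not pass (edgeR, adjusted p 0.2). Creb3, a membrane-bound factor of the endoplasmic reticulum that proteolysis releases, had 72.7, 91.2 and 89.5 CPM in PGE2 libraries 1 to 3, against 61.1, 63.3 and 76.2 CPM in vehicle libraries 1 to 3. PGE2 library 1 lay below vehicle library 3, and all 3 pairs were higher with PGE2 (log2 fold change 0.33 ± 0.0807, edgeR adjusted p 0.0225 paired and 0.19 without pairing). Creb5 was rare, with 1.49, 1.43 and 1.01 CPM with PGE2, against 2.21, 2.93 and 1.39 CPM with vehicle. Its groups overlapped while each pair was lower with PGE2, and it fell (log2 fold change -0.70 ± 0.209, edgeR adjusted p 0.0491 paired and 0.26 without pairing). With the length correction Creb5 had -0.49 and did not pass.

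No CRTC coactivator gene passed. Crtc2, the most abundant, had a log2 fold change of 0.01 ± 0.0766, Crtc3 -0.04 ± 0.0797, and Crtc1 -0.11 ± 0.0853. Of the 3 kinases that phosphorylate them, Sik1, an inducible CREB target in other cells, had 17.1, 18.8 and 15.7 CPM in PGE2 libraries 1 to 3, against 15.1, 14.2 and 11.3 CPM in vehicle libraries 1 to 3. The groups did not overlap, and Sik1 rose (log2 fold change 0.35 ± 0.0979, edgeR adjusted p 0.04 paired and 0.211 without pairing). Sik2 (-0.24 ± 0.0923) and Sik3 (-0.22 ± 0.0739) had negative values and did not pass.

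**Figure D4:**
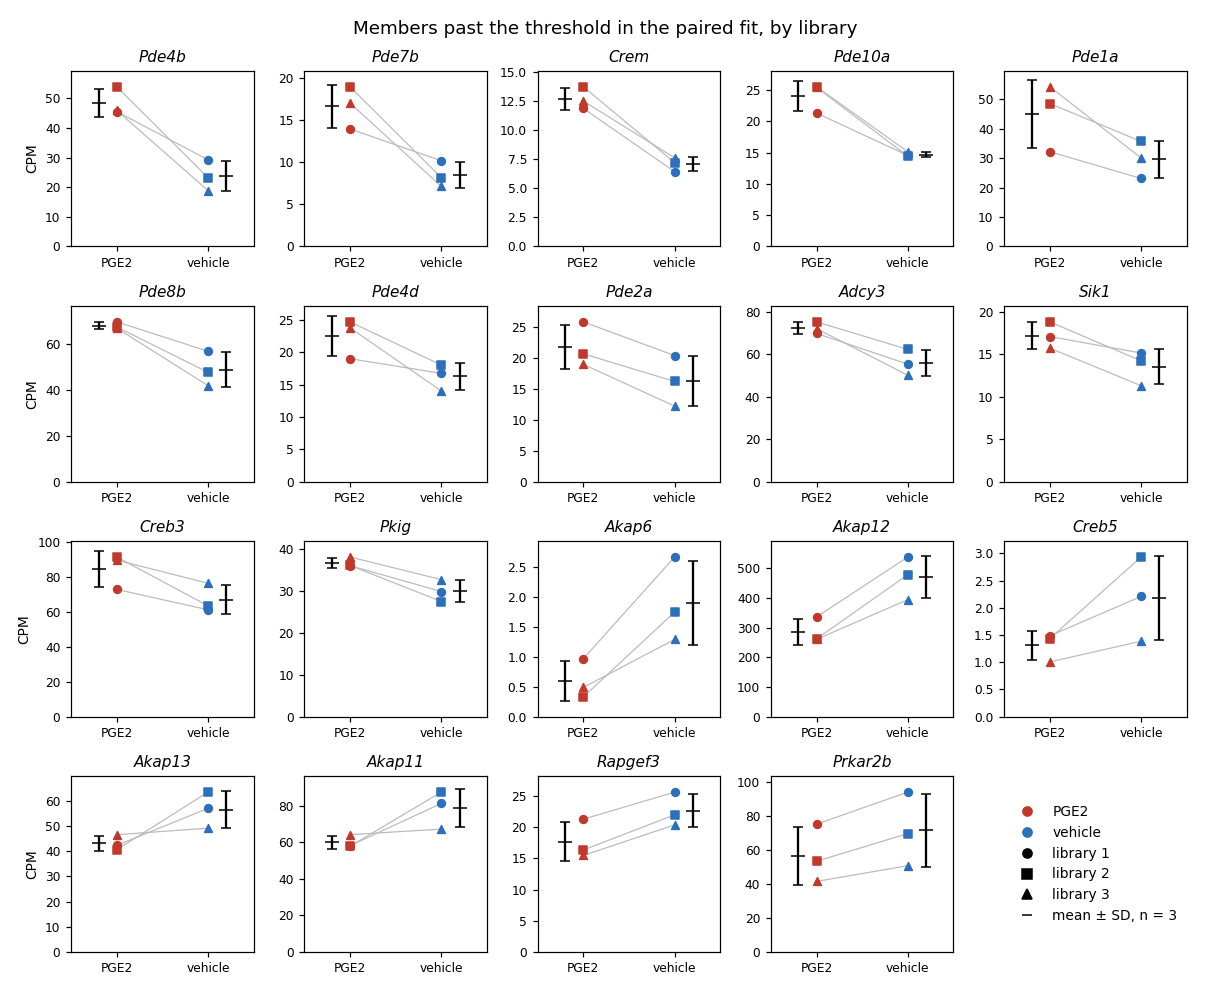
Level (CPM) by library of the 19 members that passed in the paired fit, PGE2 left and vehicle right, with lines joining libraries of the same number and bars for the mean ± SD (n = 3 each). Every line runs in 1 direction within a gene, where 26.6% of all tested genes were higher and 25.5% lower in all 3 pairs. The genes were chosen by the test on these pairs, so that agreement follows in part from the choice. In Pde4b, Pde7b, Crem and Pde10a, among others, all PGE2 libraries lie above all vehicle libraries.

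Across the 57 tested members, the 2 groups did not overlap for 21, 12 with PGE2 above and 9 below, where 25.9% of all tested genes did not overlap. In the paired fit with each pair left out, 11 of the 19 passed every time: Pde4b, Pde7b, Pde10a, Pde1a, Pde8b, Pde4d, Pde2a, Adcy3, Crem, Akap12 and Akap6. Akap11, Akap13, Creb5, Prkar2b and Pkig passed only when pair 3 was left out, and Creb3, Rapgef3 and Sik1 in 2 of the 3. The 19 were chosen by the fit on these same libraries, so passing again is not independent support. Among all tested genes, 1372 of 15057 passed without pair 1, 1160 of 15307 without pair 2 and 5097 of 15316 without pair 3. DESeq2, without pairing, called 10 of the members, all among the 19, where 6.04% of all genes with an adjusted p were called.

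Genes known as cyclic AMP response targets, outside the 68, gave 9 higher and none lower of 19 tested in the paired fit. Among all tested genes 6.91% were higher in that fit. Without pairing, 3 of the 19 targets were higher, where 0.211% of all tested genes were. Nr4a1, an orphan nuclear receptor, averaged 45.7 ± 13.1 CPM with PGE2 and 12.2 ± 1.44 CPM with vehicle (log2 fold change 1.87 ± 0.116 SE, edgeR adjusted p 4.06e-05 paired and 0.0402 without pairing). Il6, the cytokine, averaged 13.7 ± 5.32 CPM with PGE2 and 1.48 ± 0.317 CPM with vehicle (log2 fold change 3.06 ± 0.249, edgeR adjusted p 0.000296). Nr4a3 averaged 3.63 ± 0.491 CPM with PGE2 and 0.955 ± 0.229 CPM with vehicle (1.88 ± 0.218, adjusted p 0.000543). The others that rose were Nr4a2, Fos, Junb, Dusp1, Rgs2 and Nfil3, at log2 fold changes between 0.50 and 0.65. Of 15 tested CREB coactivators and relatives, Atf4 rose (0.29 ± 0.0771) and Crebrf fell (-0.48 ± 0.108). These counts are near the shares over all tested genes, 6.91% higher and 7.51% lower, which also apply to the lists that follow. Of 15 other anchors, effectors and exporters of cyclic AMP, the channel gene Hcn4 rose (1.46 ± 0.345, at 0.677 CPM with PGE2 and 0.249 CPM with vehicle), and Map2 (-1.03 ± 0.139) and Prkx (-0.37 ± 0.0913) fell. Of 8 cyclic GMP genes, Npr3 rose (0.72 ± 0.121), and Npr2 (-0.28 ± 0.0730) and Prkg2 (-0.26 ± 0.0723) fell. All these lists were drawn up with earlier results of these data known.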

How the data were processed

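Poly(A) RNA was sequenced from 3 libraries of progenitors given PGE2 and 3 given vehicle. The deposited values are raw counts, 1 whole number per gene and library, listed by Ensembl identifier and symbol. Reads were placed on mm10, per the submitters' processing notes, which matches the GRCm38 assembly of the GENCODE annotation used for positions and lengths. Not given in the sources used here were the aligner, counter, strandedness and annotation version. A chi-square comparison of counts between libraries of a group gave 19.4 to 94.2 per degree of freedom, above sampling noise for every pair.

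The test was edgeR 4.0.16 in R 4.3.3 (filterByExpr, trimmed mean of M values, robust quasi-likelihood test, Benjamini-Hochberg adjustment over all 15186 tested genes, threshold 0.05). CPM are counts over the scaled library size, and levels between genes are given per kilobase of the longest annotated transcript. Fold changes are PGE2 over vehicle. Deviations of same-numbered libraries from their group means correlated at 0.621, 0.169 and 0.422 for numbers 1 to 3. Since each exceeded 0.1, the numbers were used as a block in the paired fit, a pairing that rests on the data, since the labels do not state one. The cross pairs PGE2 2 with vehicle 3 and PGE2 3 with vehicle 2 gave 0.252 and 0.145, so swapped numbers would meet the same rule, and they were not fitted. Alternatives were DESeq2 version 1.42.0, other scalings, no filter, left-out libraries, and an offset with a lowess trend of log2 counts on transcript length (span 0.3, prior count 2). The edgeR fits with and without the block were run on simulated counts that held no pair effect and no length trend. That run cannot check the choice of pairs or the length correction.

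The members and gene lists were chosen with earlier results of these data known. Named were the members past the threshold in either fit and, in each subfamily and phosphodiesterase family, the most abundant per kilobase and the largest change. Other members are named with values to complete their groups. Of the 68 members, 67 matched the annotation by identifier, all but the second Pde4d identifier, which was left out of sums per kilobase.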

Additional observations from a re-analysis of the deposited data

How the results depend on the processing

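Without pairing, 2 members, 52 genes in all and 3 of the listed pathway genes passed. With the replicate block, 19, 2189 and 19 did, and with the block and the length correction 19, 2549 and 20. The length correction alone gave 0, 15 and 1, with 18 members at an unadjusted p under 0.05 in edgeR. DESeq2 gave 10, 829 and 10. Without a filter on low counts, 6 members and 285 genes passed. Leaving out 1 library gave 0 to 3 members, 0 to 120 genes and 0 to 3 pathway genes in edgeR. There, 13 to 22 members had an unadjusted p under 0.05, and 0 members passed without PGE2 replicate 2, PGE2 replicate 3, vehicle replicate 2 or vehicle replicate 3. No tested gene of the whole table passed in those settings either. In the fit with the replicate block, leaving out pair 1, 2 or 3 gave 16, 13 or 30 members, 1372, 1160 or 5097 genes and 15, 13 or 26 pathway genes. Other scalings gave 2 members each, and 50 and 65 genes. Scaling by library totals moved the split of all genes to 31 higher and 34 lower, against 32 higher and 20 lower. The 19 members past the threshold in the paired fit kept their direction in each of these settings. Among values past the threshold in neither setting, 14 of 421 changed sign. Members at few counts, such as Akap6, Creb5 and Rapgef4, are limited by depth. The causes of these differences between settings were not tested.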
